A study of Mus musculus with 6 samples.

Results

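The miRNA family of mir-15, mir-16, mir-195 and mir-497 was examined as 6 miRNA precursor entries chosen by name, mir-15a, mir-15b, mir-16-1, mir-16-2, mir-195a and mir-497a, out of 1006 entries in a table of small RNA sequencing counts. A total of 6 libraries were measured. Myo-EVs (2 libraries) are extracellular vesicles collected by ultracentrifugation from the medium of C2C12 cells, a mouse myoblast line, after 48 hr in medium with EV-depleted serum. FFSS-Myo-EVs (2 libraries) came from C2C12 cells that were exposed on an orbital shaker to fluid flow shear stress (FFSS), calculated as 6 dyn/cm2, for the same 48 hr. The other libraries were prepared from mouse primary osteoblasts (OB, 1 library) and mouse primary bone marrow cells (BM, 1 library), both labelled as unstressed controls from animals of 8 to 10 weeks. The labels give all 6 libraries, EVs included, a background that is 18.75% 129/SvJ, the other 81.25% being C57BL/6J. The paper states this background for its mice, whereas its C2C12 cells came from a culture collection, so the label is doubtful for the EVs. In place of the labelled ages, the methods take osteoblasts from the calvariae of 5 pooled pups of 3 to 5 days and bone marrow from 1 male of 8 weeks. The growth protocol in the labels describes vitamin D and dexamethasone cultures without FFSS. C2C12 is a single established line, no C2C12 cells were sequenced beside their vesicles, and nothing states that the replicate EV libraries came from separate cultures, so p-values measure only the spread between these libraries, which may be technical.

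A miRNA guides a silencing complex to messenger RNAs that pair with its seed, bases 2 to 8 from the 5′ end, and miRNAs with the same seed largely share their targets. The family is known for restraining the cell cycle by targeting G1 cyclins and their kinases, and for targeting the survival factor BCL2. It lies in clusters, each transcribed as a unit. In skeletal muscle, miR-195 and miR-497 are known for keeping stem cells quiescent.

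The mature sequences are shown because the family is defined by them, with the seed in capitals and the remainder, by which the members differ, in lower case. They were taken from RefSeq (GRCm38.p6), which holds a mature sequence for all 6 members. Mir-322 and mir-503, from a cluster on chromosome X, are added for comparison.
miR-15a-5p: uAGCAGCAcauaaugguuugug
miR-15b-5p: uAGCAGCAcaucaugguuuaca
miR-16-5p, from mir-16-1 and mir-16-2: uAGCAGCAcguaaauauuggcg
miR-195a-5p: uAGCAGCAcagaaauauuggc
miR-497a-5p: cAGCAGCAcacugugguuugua
miR-322-5p: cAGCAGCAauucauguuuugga
miR-503-5p: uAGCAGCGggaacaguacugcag

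The seed AGCAGCA was shared by the 6 members and by miR-322-5p, and among 1738 mature sequences in the RefSeq table it was found in 11. Besides these 7, it occurred in miR-195b and miR-6353, which the count table lists, and in miR-6342 and miR-6419. MiR-503-5p differed from it at the last seed base. Counted base by base from the 5′ end, miR-16-5p and miR-195a-5p differed at 2 of 21 positions (G10A and U11G, miR-16-5p given first), which was the closest pair of different members. MiR-15a-5p and miR-15b-5p differed at 4 of 22 positions, and miR-16-5p and miR-497a-5p at 11 of 22.

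The positions are those of GENCODE M21 on GRCm38, the assembly also called mm10, which the submitters' processing notes name. Mir-15a (chr14:61632027-61632110, minus strand) lies in an intron of the noncoding gene Dleu2, and mir-16-1 (chr14:61631880-61631972) follows it 54 bases away and overlaps an annotated exon of Dleu2. Mir-15b (chr3:69009772-69009835, plus strand) and mir-16-2 (chr3:69009902-69009996) lie 66 bases apart in an intron of Smc4, which encodes a condensin subunit. Mir-497a (chr11:70234717-70234800, plus strand) and mir-195a (chr11:70235042-70235135) are 241 bases apart. No gene overlaps mir-195a in this annotation, and mir-497b is annotated on the strand opposite to mir-497a. The hairpins of mir-16-1 and mir-16-2 are shown to make clear why their counts are uncertain: the arm in capitals, mature miR-16-5p, is identical in both.
mir-16-1: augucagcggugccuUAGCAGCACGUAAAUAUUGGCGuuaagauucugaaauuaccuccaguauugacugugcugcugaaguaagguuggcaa
mir-16-2: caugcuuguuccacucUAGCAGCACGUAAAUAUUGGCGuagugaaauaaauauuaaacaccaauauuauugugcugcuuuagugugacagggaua

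A read of miR-16-5p cannot be assigned to either copy, and whether such reads were divided between the entries or counted in both is not given in the sources used here. Totals and shares that hold mir-16 are therefore also given with mir-16-2 left out, as the values for mir-16 counted once. That name holds only if reads were counted in both entries. If reads were divided, these values leave out part of the miR-16 reads. Of the 6 precursors, only mir-16-1 and mir-16-2 share an 18-base stretch with an annotated gene that does not overlap them, namely with each other. The entries do not separate 5p from 3p reads.

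Total counts ranged from 2414132 to 3029524 in the EV libraries and were 5181296 in OB and 6092460 in BM. The levels below are the authors' normalized expression values, counts multiplied by 1 constant per library. For single libraries, 95% intervals were computed by the exact Clopper-Pearson method from counts, and they cover counting error only, because without molecular identifiers PCR copies of 1 molecule are counted as separate reads. Summed by list, blood miRNAs were highest in BM and muscle miRNAs in EVs, whereas mesenchymal miRNAs were high in both OB and EVs. Such a sum can rest on few entries of its list. The summed level of 5 listed blood miRNAs was 11702.6 in BM, 190.6 in OB and 87.3 to 148.5 in EVs, with none at 0 except 2 in the second Myo-EV library. The summed level of 5 mesenchymal miRNAs was 469574 in OB, 20790.9 in BM and 326803 to 428560 in EVs, and that of 6 muscle miRNAs was 2052.9 to 2641.9 in EVs, 118.9 in OB and 71.9 in BM, with 1 or 2 of the 6 at 0 in each EV library and 1 in BM.

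The 6 members together were highest in bone marrow cells. Their summed normalized expression value was 7760.6 in BM, 2859.4 in OB, 2307.9 and 2860.0 in the Myo-EV pair and 2677.9 and 3090.0 in the FFSS-Myo-EV pair. The family took 0.321% of the counts in BM (95% interval 0.316 to 0.325), 0.0999% in OB (0.0972 to 0.103) with 0.0801% to 0.105% in EVs. With mir-16 counted once these shares were 0.194% in BM, 0.0696% in OB and 0.0559% to 0.0725% in EVs, and BM remained the highest. BM was 2.71 times OB (2.63 to 2.80, counting error only), and the OB value fell within the range of the EV libraries. Most of the BM excess was mir-16. Without its 2 entries the ratio of BM to OB was 1.30, and with the mir-16 copies counted once it was 2.36. OB and BM have 1 library each, so no difference from them was tested, and in bulk RNA a smaller number of cells of a type cannot be told apart from less miRNA per cell.

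**Figure D1:**
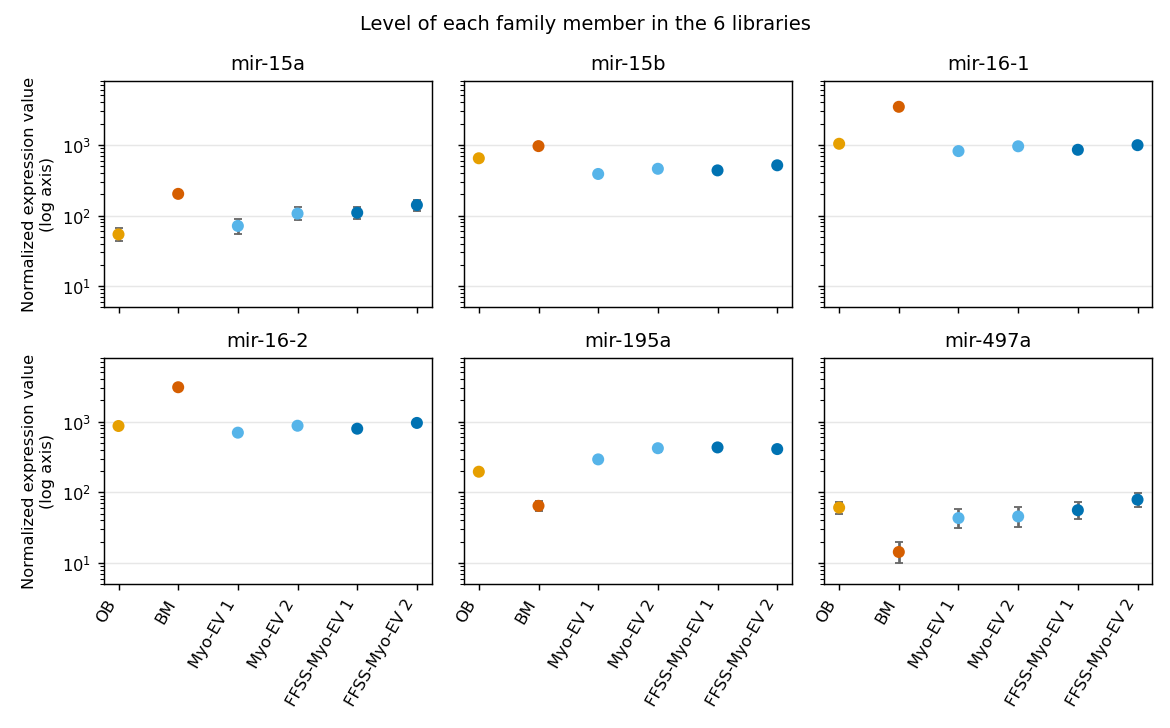
Normalized expression value (log axis) of each member in the OB, BM, Myo-EV and FFSS-Myo-EV libraries, with points for libraries and bars for the 95% counting interval. BM is the highest library for mir-15a, mir-15b, mir-16-1 and mir-16-2 and the lowest for mir-195a and mir-497a.

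The mir-16 copies, the members with the most counts in all 6 libraries, were 3.33 and 3.53 times as high in BM as in OB. Mir-16-1 was at 3454.3 in BM (3382 to 3528), 1036.0 in OB (990 to 1084), 816.1 and 954.5 in the Myo-EV pair and 851.8 and 990.1 in the FFSS-Myo-EV pair. All EV libraries were thus below OB, by little, and far below BM. Mir-16-2 was at 3064.7 in BM (2997 to 3134) and 867.0 in OB (825 to 911), with 697.7 and 874.3 in the Myo-EV pair and 794.0 and 958.0 in the FFSS-Myo-EV pair. Its EV values lay on both sides of that in OB. Among the 1006 entries, mir-16-1 ranked 60 in BM, 126 in OB and 117 to 120 in EVs.

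The mir-15 members, which share their primary transcripts with mir-16, were also highest in BM, but they differed from each other in OB. Mir-15a was at 202.6 in BM (185 to 221, 510 counts), 54.1 in OB (43.9 to 66.0, 98 counts), 71.3 and 106.6 in the Myo-EV pair and 109.6 and 140.7 in the FFSS-Myo-EV pair. OB was the lowest library for mir-15a, although its interval overlapped that of the first Myo-EV library. Mir-15b was at 960.4 in BM (922 to 999), 646.1 in OB (610 to 684), 387.5 and 458.7 in the Myo-EV pair and 435.3 and 513.9 in the FFSS-Myo-EV pair, so that here OB was above all EV libraries. BM was 3.74 times OB for mir-15a (3.01 to 4.69) and 1.49 times OB for mir-15b (1.39 to 1.60).

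The chromosome 11 members had the opposite order, with the lowest values in bone marrow cells. Mir-195a was at 64.3 in BM (54.8 to 75.0, 162 counts), 195.5 in OB (176 to 217), 292.1 and 420.4 in the Myo-EV pair and 431.4 and 408.7 in the FFSS-Myo-EV pair. Every EV library was above OB and BM for mir-195a, and the EV mean was 1.99 times OB and 6.04 times BM. Mir-497a was at 14.3 in BM (10.0 to 19.8, 36 counts), 60.7 in OB (49.9 to 73.2, 110 counts), 43.2 and 45.5 in the Myo-EV pair and 55.8 and 78.6 in the FFSS-Myo-EV pair. The OB and EV values of mir-497a overlapped, and all were above BM.

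At 2-fold on the authors' scaling, mir-15a, mir-16-1 and mir-16-2 were higher and mir-195a and mir-497a lower in BM than in OB. The background over the 443 entries that averaged 10 or more was 32.3% higher and 37.0% lower, so differences of this size between these libraries were common. Against BM, the EV mean was at least 2-fold lower for mir-15b, mir-16-1 and mir-16-2 (background 40.2%) and at least 2-fold higher for mir-195a and mir-497a (background 42.9%). Against OB, no member reached 2-fold in either direction (background 35.7% higher and 36.1% lower), the nearest being mir-195a and mir-15a, at 1.99 and 1.98 times OB. The directions of all member ratios to BM remained with 3 other scalings of the 6 libraries, which gave BM to OB ratios from 2.88 to 3.94 for mir-16-1 and from 0.284 to 0.389 for mir-195a. The blood marker miRNAs were highest in BM as well, and their part in the level of mir-16 in BM was not tested.

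The make-up of the family was then compared as the share of each member in the counts of all 6, which does not depend on the scaling between libraries. The mir-16 entries took 84.0% of the family counts in BM (95% interval 83.5 to 84.5), 66.6% in OB (65.2 to 67.8), 65.6% and 63.9% in the Myo-EV pair and 61.5% and 63.0% in the FFSS-Myo-EV pair. Counted once, mir-16 took 73.6% in BM, 52.0% in OB and 45.2% to 50.7% in EVs. Mir-195a and mir-497a together took 1.01% in BM (0.878 to 1.16), 8.96% in OB (8.20 to 9.77), 14.5% and 16.3% in the Myo-EV pair and 18.2% and 15.8% in the FFSS-Myo-EV pair. The EV libraries thus held the largest share of chromosome 11 members, with intervals above that of OB in each of the 4 libraries. With mir-16 counted once the share of these 2 members was 1.67% in BM, 12.9% in OB and 20.8% to 25.9% in EVs, in the same order. Mir-15b took its largest share in OB, 22.6% (21.5 to 23.8), against 12.4% in BM and 16.0% to 16.8% in EVs. With mir-16 counted once its share was 32.4% in OB, 20.5% in BM and 23.1% to 24.1% in EVs.

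**Figure D2:**
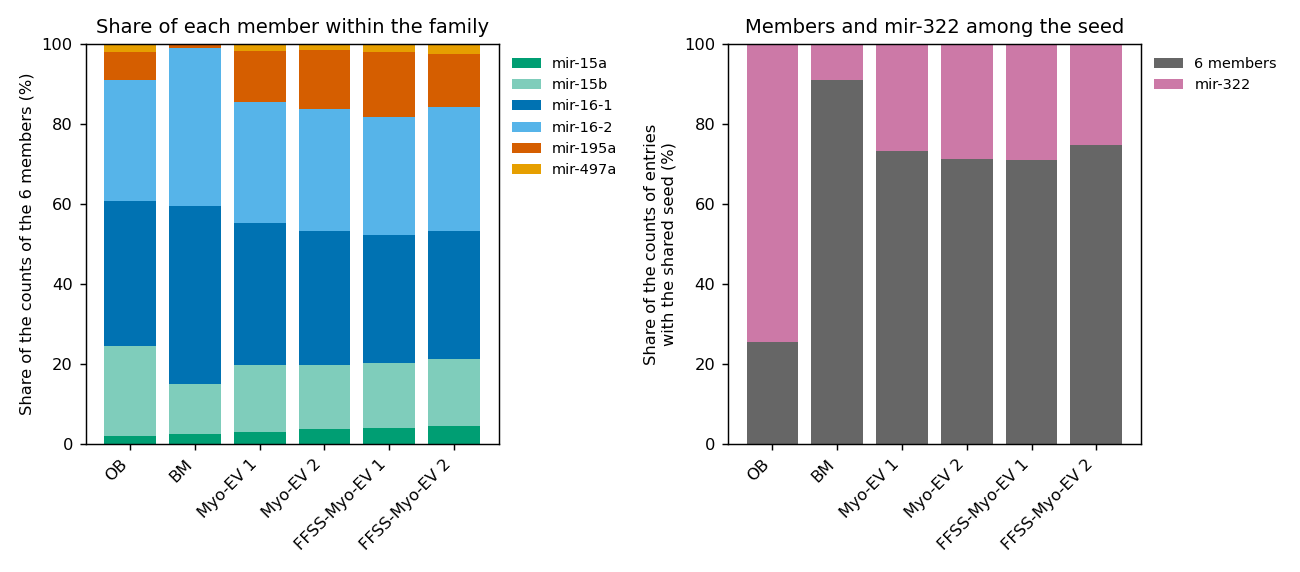
Left, share (%) of each of the 6 members in the family counts of each library. Right, share (%) of the 6 members and of mir-322 in the counts of all listed entries with the seed AGCAGCA. Mir-16 is the largest part of the family in all 6 libraries, and mir-322 is the larger part of the seed in OB only.

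Ratios of counts between members set the clusters against each other, and as the mature forms are 21 or 22 bases long no length correction was made. How efficiently each sequence was captured was not measured, so these are ratios of counts and not of molecules. Mir-15a stood for chromosome 14 and mir-15b for chromosome 3, because reads of mir-16 cannot be divided between them. The ratio of mir-15a to mir-15b was 0.0838 in OB (0.0674 to 0.103), 0.211 in BM (0.191 to 0.232), 0.184 and 0.232 in the Myo-EV pair and 0.252 and 0.274 in the FFSS-Myo-EV pair. OB was the lowest, with an interval separate from those of the other 5 libraries. The ratio of mir-16-2 to its neighbour mir-15b was 3.19 in BM (3.05 to 3.34), 1.34 in OB (1.24 to 1.45) and 1.80 to 1.91 in the 4 EV libraries. These neighbouring entries were therefore not listed in a fixed proportion. The mir-16-2 entry may also hold part or all of the miR-16-5p reads from mir-16-1. The ratio thus cannot show whether members of 1 primary transcript differed in proportion.

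The ratio of mir-195a to mir-15b ran from 0.0670 in BM (0.0568 to 0.0786) over 0.303 in OB (0.268 to 0.341) to between 0.754 and 0.991 in the EV libraries. The interval included 1 in the second Myo-EV and the first FFSS-Myo-EV library and lay below 1 in the other 4 of the 6 libraries. Within the chromosome 11 cluster, the ratio of mir-195a to mir-497a was 3.22 in OB (2.59 to 4.02), 4.50 in BM (3.12 to 6.65), 6.77 and 9.24 in the Myo-EV pair and 7.73 and 5.20 in the FFSS-Myo-EV pair. The interval of BM overlapped those of OB and of the 4 EV libraries. The ratio of mir-16-1 to mir-16-2 was between 1.03 and 1.19 in all 6 libraries, so that the copies were listed at nearly the same count.

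**Figure D3:**
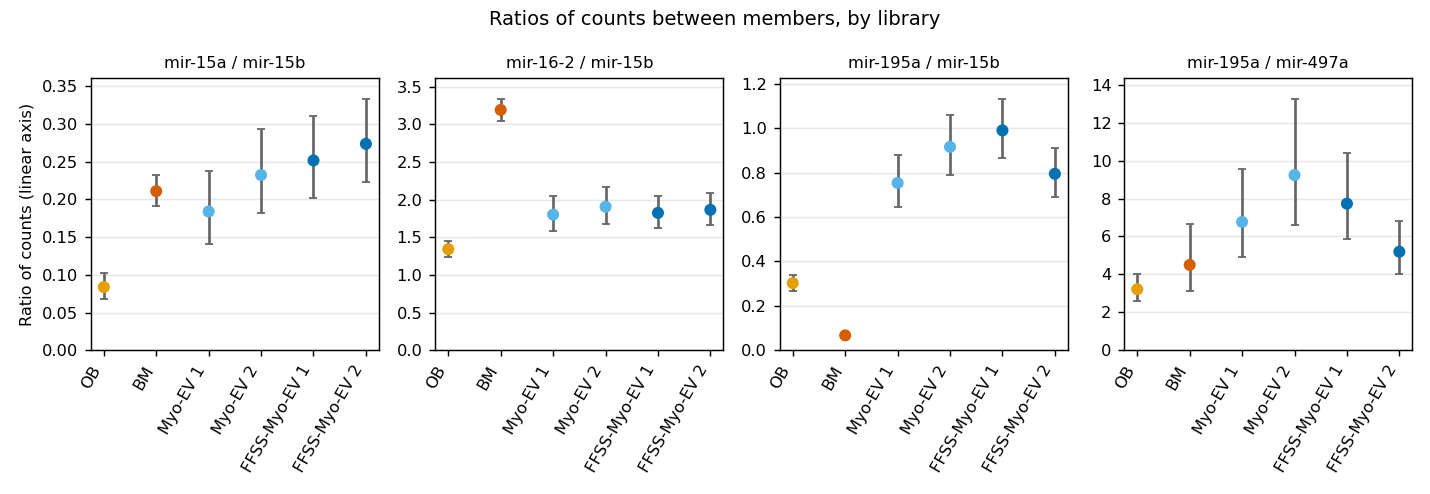
Ratio of counts (linear axes) between 2 members in each library, with points for libraries and bars for the exact 95% counting interval. OB is lowest for mir-15a to mir-15b, BM is highest for mir-16-2 to mir-15b and lowest for mir-195a to mir-15b, and the EV libraries lie between 0.754 and 0.991 for the latter.

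To examine whether FFSS changed the family in EVs, the counts of the 4 EV libraries were normalized by TMM and compared with the quasi-likelihood test of edgeR, with Benjamini-Hochberg adjustment over 354 entries. In that fit the prior degrees of freedom were infinite, so the spread was pooled over all entries and not estimated for each entry. All 6 members were tested. None of them passed an adjusted p of 0.05, whereas 30.5% of the entries did (12.1% higher and 18.4% lower). By edgeR, 0 members were under an unadjusted p of 0.05, against 138 of the 354 entries. DESeq2 called 0 members and 83 entries, and limma called 0 members and 94 or 93 entries (pseudocount 1 or 10). The edgeR log2 fold changes of the members ranged from -0.07 to 0.47 with a median of 0.09, and the median over all entries tested was -0.02. The authors' scaling places FFSS-Myo-EVs above Myo-EVs by a further 0.12 on the log2 scale.

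The changes closest to 0 were those of the members with the most counts. For mir-16-1, the log2 fold change was -0.07 (95% interval -0.32 to 0.19, edgeR quasi-likelihood adjusted p = 0.768), and its sign turned with the authors' scaling, library totals and limma. It was 0.03 for mir-16-2 (-0.22 to 0.29) and 0.04 for mir-15b (-0.25 to 0.34). These intervals leave room for changes of up to 1.26-fold upwards and 0.802-fold downwards. The Myo-EV and FFSS-Myo-EV values of these 3 entries overlapped.

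In mir-15a and mir-497a, the 2 members with the lowest counts, the FFSS-Myo-EV values lay higher than both Myo-EV values, with the scaling of the authors and with TMM. On the authors' scaling this order was found in 36.7% of the entries tested, and on TMM values in 26.0%. For mir-15a, the means were 89.0 ± 25.0 (SD, n = 2) in Myo-EVs and 125.2 ± 22.0 (SD, n = 2) in FFSS-Myo-EVs, and the log2 fold change was 0.38 (standard error 0.26, 95% interval -0.14 to 0.90, edgeR quasi-likelihood adjusted p = 0.310). For mir-497a, the means were 44.4 ± 1.6 (SD, n = 2) and 67.2 ± 16.1 (SD, n = 2), and the log2 fold change was 0.47 (standard error 0.33, -0.18 to 1.11, edgeR quasi-likelihood adjusted p = 0.311). The counts behind them were 71 to 127 for mir-15a and 38 to 71 for mir-497a, and the intervals run from 0.906-fold to 1.86-fold for mir-15a and from 0.882-fold to 2.16-fold for mir-497a. Both intervals include no change. Mir-15a also leaned on the second Myo-EV library, without which its log2 fold change was 0.72 (edgeR quasi-likelihood unadjusted p = 0.0202, adjusted p = 0.0601), and it was 0.16 without the first.

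For mir-195a, a single library decided the call. Its log2 fold change was 0.13 (standard error 0.16, 95% interval -0.18 to 0.44, edgeR quasi-likelihood adjusted p = 0.626). Without the second Myo-EV library, at 420.4, it was 0.44 with an adjusted p of 0.0303 in edgeR, and without the first, at 292.1, it was -0.06. Over all alternatives, the adjusted p of mir-195a ranged from 0.0303 to 0.971.

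**Figure D4:**
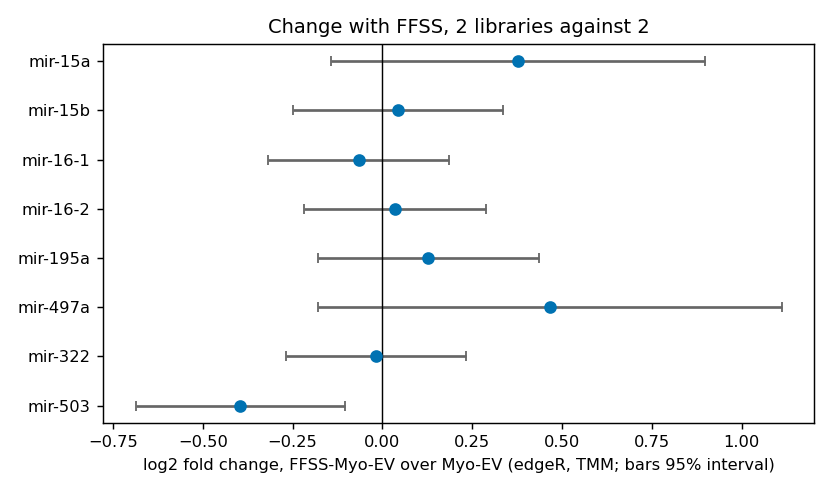
The log2 fold change of FFSS-Myo-EVs over Myo-EVs for the 6 members, mir-322 and mir-503, with points for edgeR estimates after TMM and bars for 95% intervals (2 libraries against 2). The intervals of the 6 members and of mir-322 include 0, and that of mir-503 lies below 0.

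With shares in place of levels, mir-15a took 3.09% and 3.73% of the family counts in the Myo-EV pair and 4.09% and 4.55% in the FFSS-Myo-EV pair, while the mir-16 entries took less of them in both FFSS-Myo-EV libraries than in both Myo-EV libraries. For both shares, the intervals of the closest Myo-EV and FFSS-Myo-EV libraries overlapped. With mir-16 counted once, mir-15a took 4.43% and 5.37% in the Myo-EV pair and 5.82% and 6.60% in the FFSS-Myo-EV pair. Mir-16 then took 50.7% and 48.1% in the Myo-EV pair and 45.2% and 46.4% in the FFSS-Myo-EV pair. A two-sided exact permutation test of such a share, 2 libraries against 2, cannot go below p = 0.333.

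Among relatives with the seed, mir-322, the mouse counterpart of human miR-424, had the opposite order to mir-16 in the cells. Its level was 8342.3 in OB and 777.3 in BM, with 839.2 to 1157.0 in EVs. Of all counts in the 9 listed entries with the seed AGCAGCA, mir-322 made up 74.5% in OB (73.9 to 75.1), 9.10% in BM (8.72 to 9.50) with 25.1% to 29.0% in EVs. The seed as a whole took 0.392% of the counts in OB and 0.353% in BM, whereas the 6 members alone differed more between these cells, at 0.0999% and 0.321%. In EVs the seed took 0.109% to 0.140%. The nearness of OB and BM rested on both mir-16 entries being counted. With mir-16 counted once, the seed took 0.361% in OB, 0.226% in BM and 0.0850% to 0.109% in EVs, and mir-322 made up 80.7% of it in OB, 14.2% in BM and 32.7% to 36.8% in EVs. The remaining listed relatives were near absent: mir-195b had at most 2 counts in a library and mir-6353 at most 1. Mir-497b, opposite mir-497a, had 4 to 31 counts, and its mature form carries a different seed.

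With FFSS, mir-322 did not pass the test (log2 fold change -0.02, 95% interval -0.27 to 0.23, edgeR quasi-likelihood adjusted p = 0.940). Mir-503, whose seed differs at the last base and which lies beside mir-322, was 481.8 and 509.0 in the Myo-EV pair and 426.4 and 392.1 in the FFSS-Myo-EV pair, so that both FFSS-Myo-EV values were the lower ones, as in 23.7% of the entries tested. It fell by 0.40 on the log2 scale (standard error 0.15, edgeR quasi-likelihood adjusted p = 0.0284), but it passed in only 5 of 14 alternatives, with adjusted p from 0.0253 to 0.615. It did not pass with DESeq2, limma, the authors' scaling, library totals or mir-16 summed, or without the second Myo-EV library or either FFSS-Myo-EV library.

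For the wider setting, 23 entries of other miRNAs known to restrain the cell cycle (let-7, mir-26, mir-29, mir-34 and mir-449 families) and 18 entries known to promote it (mir-17-92 and its paralogs, mir-221, mir-222 and mir-21a) were read from the same fit. Of the 23 restraining entries, 5 rose (mir-26a-1, mir-26a-2, mir-26b, let-7f-1 and let-7f-2), 1 fell (mir-34c) and 17 did not pass, with a median log2 fold change of 0.05. Over all entries tested, 12.1% rose and 18.4% fell, 30.5% in all. The share called in either direction was near this in both lists. By direction, rises outnumbered falls in the restraining list, unlike over all entries in this fit, and this was not tested. The order over all entries depended on the scaling. Rises outnumbered falls there with library totals (49 and 46), the authors' scaling (54 and 39) and limma (57 and 37, pseudocount 1), but not with DESeq2 (37 and 46). The rises also include numbered copies of the same miRNA, as with let-7f-1 and let-7f-2 (0.53 and 0.54). Of the 16 promoting entries that were tested, 1 rose (mir-221), 3 fell (mir-18a, mir-106b and mir-25) and 12 did not pass, with a median of 0.02. The largest changes at a mean of at least 100 were those of mir-26a-1 (0.66) and mir-26a-2 (0.66), which share their mature form, and of mir-18a (-0.66) and mir-221 (0.51) on the log2 scale. Each of these 4 was lost from the edgeR calls without the first FFSS-Myo-EV library, and mir-18a also without the second and with limma.

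The entries outside the family whose pattern over the 6 libraries was most like that of a member were found from log2(value + 1), centred on the mean of the 6 libraries, among the 241 entries that averaged 100 or more. For mir-16-1 they were mir-362 and mir-191, with root mean square differences of 0.15 and 0.21 (log2), and for mir-16-2 they were mir-362 and mir-486b, with 0.17 and 0.21. Mir-15b was nearest to mir-181a-2 (0.11) and mir-103-2 (0.14), and mir-15a to mir-532 (0.26) and mir-30d (0.34). Mir-195a was nearest to mir-28a (0.28) and let-7c-2 (0.33), and mir-497a to mir-151 (0.25) and mir-450b (0.34). None of these entries was shared between the chromosome 11 members and the others. As the levels of these members had opposite orders in OB and BM, this adds no separate result. The points are 6 libraries, 4 of them EVs of 1 cell line, so the likeness is mostly that of the levels in OB, BM and EVs.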

How the data were processed

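Total RNA was extracted with TRIZOL, and 90 ng per library was converted with the NEBNext Small RNA kit. In CLC Genomics Workbench, the authors collapsed identical reads and annotated them against miRBase. They deposited, for 1006 precursor entries, unnormalized read counts and a normalized expression value, a signal scaled by the authors from those counts with 1 constant per library (0.397 for BM, 0.552 for OB, 0.996 to 1.20 for EVs). The submitters' notes name mm10. The miRBase release, mismatches allowed and handling of reads matching several precursors are not given in the sources used here.

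Entries with a mean normalized value of at least 10 over the 4 EV libraries (354) were tested on counts with edgeR 4.0.16 in R 4.3.3 (TMM, total counts as library sizes, quasi-likelihood test, no covariate). DESeq2 1.42.0 and limma 3.58.1 (log2 of the value plus 1 or 10) served as alternatives, besides other scalings, filters, the replicate block, mir-16 summed and each EV library left out. On simulated counts for this comparison, edgeR called 173 of 200 entries changed 2-fold among 354, and 2 unchanged ones. All simulated entries had 1 common dispersion (0.0108). These numbers therefore do not describe smaller changes or the uneven replicates here. Python 3.11.15 with scipy 1.17.1 gave intervals and ratios. Replicates differed by more than sampling noise (chi-square per degree of freedom 93.3 for Myo-EVs, 15.9 for FFSS-Myo-EVs).

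Named entries are the members, seed relatives with mir-503, the 2 largest changes in each cell cycle list at a mean of at least 100, and the 2 nearest entries per member. The other called entries of these lists were named after their values were seen. Of 6 blood markers, 5 were listed under the names used. The members and lists were chosen with earlier results of these data known.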

Additional observations from a re-analysis of the deposited data

How the results depend on the processing

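No member passed the edgeR test in any alternative with all 4 EV libraries. The number of members called was 0 to 1 over the fits without 1 EV library, the 1 being mir-195a without the second Myo-EV library (log2 fold change 0.44). The direction held in every alternative for mir-15a (0.16 to 0.72) and mir-497a (0.29 to 0.65). It turned for mir-16-1 with library totals (0.013), the authors' scaling (0.057), limma with a pseudocount of 1 (0.057) or 10 (0.057) and without the second Myo-EV library (-0.12 to 0.089 over the fits without 1 library). It turned for mir-15b and mir-16-2 without a filter (-0.0074 and -0.016), without the first Myo-EV library (-0.020 and -0.067) and without the second FFSS-Myo-EV library (-0.0014 and -0.027), with 0.21 and 0.24 as the highest values without 1 library, and for mir-195a without the first Myo-EV library (-0.064). For mir-322 it turned with median-of-ratios factors (0.0055), library totals (0.050), the authors' scaling (0.096), a mean of at least 100 (0.026), DESeq2 (0.0049), limma (0.11 with either pseudocount), mir-16 summed (0.045), and without the second Myo-EV library (0.26) or the second FFSS-Myo-EV library (0.091), the lowest value without 1 library being -0.18. The turned values run from -0.067 to 0.26, and the highest, for mir-322, had an unadjusted p of 0.0217 and an adjusted p of 0.0629 in the edgeR test. The cause was not tested.

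The number of entries called over the whole table was 108 (39.8% of them higher) and went from 44 to 132 with 1 EV library left out, the lowest being 44 and 45 without the first and the second FFSS-Myo-EV library. The share of calls that were higher was 51.6% with library totals, 58.1% with the authors' scaling, and 60.6% and 60.2% with limma. With the replicate block, 110 entries and none of the members were called. The numbers do not mark a stated pairing, and deviations of libraries with the same number correlated at 0.21 over entries.

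For the summed family, BM to OB (2.71) became 3.21 with library totals, 2.34 with median-of-ratios factors, 2.49 with TMM, 1.30 without mir-16 and 2.36 with mir-16 counted once. EV to OB (0.956) became 0.810 with median-of-ratios factors and 1.05 without mir-16. EV to BM (0.352) became 0.291 with library totals, 0.805 without mir-16 and 0.405 with mir-16 counted once. With 1 EV library left out, EV to OB ranged from 0.915 to 1.01 and EV to BM from 0.337 to 0.371. The count of mir-16 once, for ratios and shares, was chosen after the values were seen. Depth limited mir-497a most, with 36 to 110 counts, and it was not tested with a mean of at least 100.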
